A study of Homo sapiens with 8 samples.

Results

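Of the 18564 genes in the expression table of LP-1 myeloma cells, 49 encode SR proteins, hnRNP proteins or the factors that recognise the 3′ splice site. They were chosen by gene symbol alone: SRSF or HNRNP followed by a number or letters, SF3A or SF3B followed by a number, and TRA2A, TRA2B, U2AF1 and U2AF2. The set holds 12 SR protein genes, 2 TRA2 genes, 24 hnRNP genes, 2 U2AF genes, 3 SF3A genes and 6 SF3B genes. SR proteins bind exonic enhancers through their RNA recognition motifs and recruit the spliceosome with domains rich in arginine and serine, whereas many hnRNP proteins coat nascent transcripts and repress the exons they bind. U2AF reads the polypyrimidine tract and the AG at the end of an intron, and the SF3A and SF3B proteins hold the U2 snRNP on the branch site. Many of these genes also carry alternative exons of their own, some with early stop codons, through which the proteins restrain their own mRNA. In plasma cells the switch between membrane and secreted immunoglobulin involves splicing, and HNRNPLL in particular is known for alternative splicing in lymphocytes.

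LP-1 is a human multiple myeloma cell line. Its wild-type (WT) form was compared with a bortezomib-resistant (BR) derivative, made by culture with the proteasome inhibitor bortezomib (BTZ), for 2 months per the labels, and the resistant cells are 1 derived line. Each line received DMSO vehicle (a sample labelled untreated in WT cells) or SI-2, which inhibits the coactivator SRC-3, at 25 nM for 24 h. The groups were therefore WT with vehicle, WT with SI-2, BR with vehicle and BR with SI-2, with 2 libraries in each and 8 in all, and the study asked what SI-2 does to the transcriptome of resistant cells. No label says whether the 2 libraries of a group came from separate cultures, so the p-values measure the spread between these libraries, which may be technical. Library totals were 17997771 to 18570027 estimated counts. Summed over 8 plasma cell markers, FPKM (fragments scaled by transcript length and by library size) lay between 1120 and 1893 in the 8 libraries, and the summed markers of B cells, T cells, monocytes, epithelial cells and fibroblasts stayed at or below 11.9. The B cell genes MS4A1 and PAX5 were under 0.1 FPKM in every library, although the label calls the cells B lymphoblasts. RNA was taken in bulk, so fewer cells of a type and less RNA per cell cannot be told apart.

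Of the 49 genes, 23 had a mean FPKM of 100 or more, and the most abundant were the hnRNP genes HNRNPA1 and HNRNPA2B1 and the branch site gene SF3B2. The hnRNP family also held the lowest genes, and its median of 99.9 FPKM over genes lay beside 114 for SF3B, 120.3 for TRA2 and 78.8 for the SR proteins. HNRNPA1 (NCBI gene 3178), a repressor of exon inclusion, stood first with 1344, 1128, 1143 and 1058 FPKM in the WT libraries (vehicle 1, vehicle 2, SI-2 1, SI-2 2) and 1287, 1149, 1035 and 1067 FPKM in the BR libraries in the same order. It alone made up 18.3% of the summed mean FPKM of the 49 genes, and the first 5 genes made up 39.3%. All 8 HNRNPA1 values lay above every value of any other member. HNRNPA2B1 (NCBI gene 3181), a close relative that binds UAG-containing RNA, followed at 299.7 to 452 FPKM. Next came SF3B2 at 306 to 399.9 FPKM and then HNRNPH1, which binds G tracts, at 261 to 380 FPKM, and these 3 neighbours in the order overlapped over the libraries.

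Among the SR proteins, SRSF2 (mean 201 FPKM) and SRSF7 (mean 185 FPKM) were the most abundant, followed by SRSF5 (mean 126 FPKM). Neighbours in this order overlapped, whereas SRSF2 (149 to 280.0 FPKM) lay just above SRSF5 (102 to 147 FPKM). SRSF2 binds enhancers of mixed sequence and remains in the nucleus, and SRSF7 shuttles and helps mRNA export. SRSF12 was the lowest gene above the count filter, with 0.17 to 0.41 FPKM. TRA2B, which promotes exons with GAA-rich enhancers, had a mean of 173 FPKM and its paralog TRA2A 67.6 FPKM. Of the U2AF partners, U2AF1 had a mean of 97.3 FPKM and U2AF2, which binds the polypyrimidine tract, 44.6 FPKM. Within the branch site complexes SF3B2, which contacts the branch site, was the highest, SF3B6 and SF3B4 followed with means of 146 and 117 FPKM, and SF3B1, the large scaffold that clasps the branch helix, had a mean of 112 FPKM. The SF3A subunits had means of 108 FPKM for SF3A2, 54.0 FPKM for SF3A3 and 44.8 FPKM for SF3A1. FPKM is per length, which permits these comparisons between genes. Together the 49 genes held 1.28% to 1.55% of all summed FPKM.

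**Figure D1:**
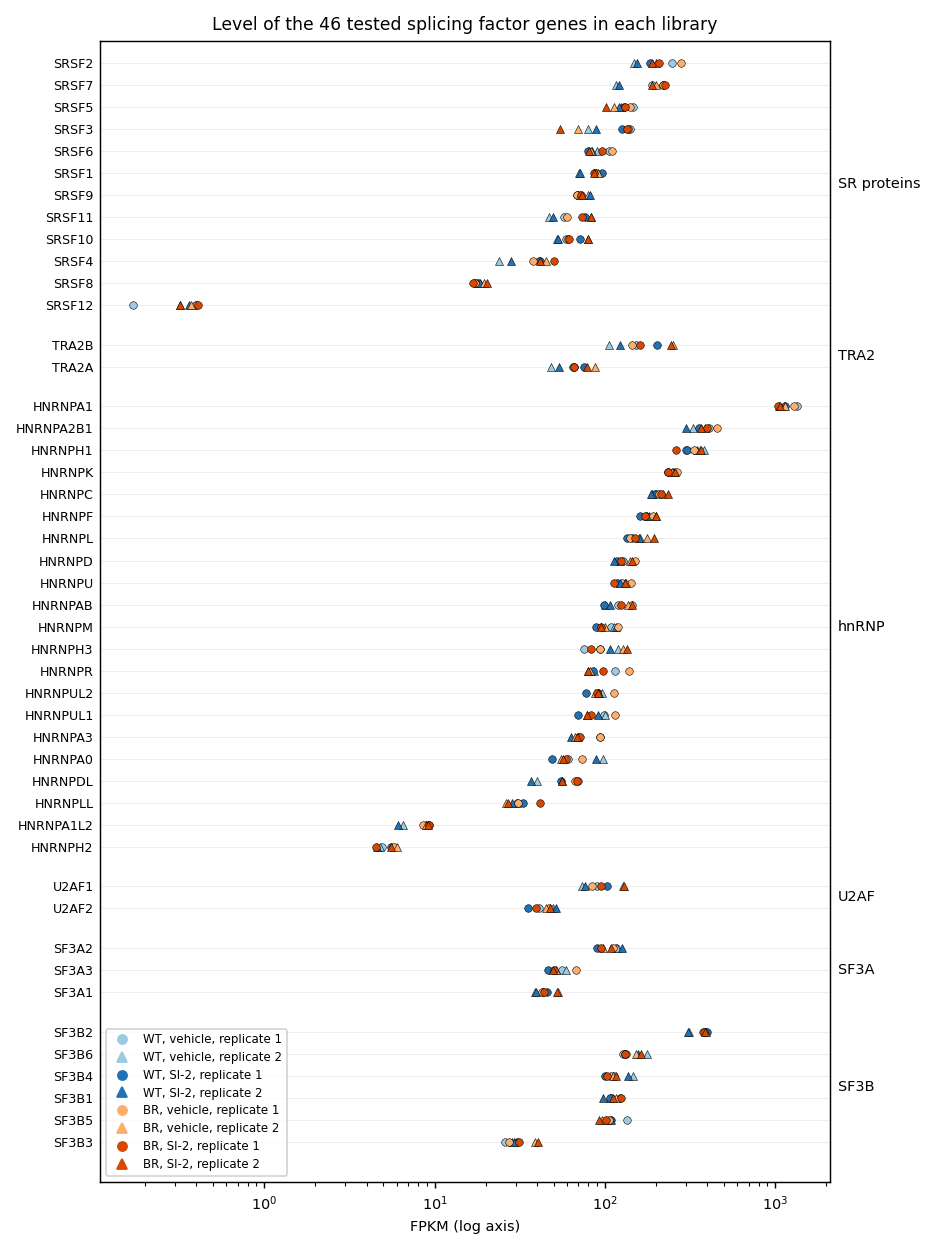
FPKM on a log axis of each of the 46 tested genes in the 8 libraries, grouped by family and ordered by mean; colour gives the group, circles are replicate 1 and triangles replicate 2. HNRNPA1 stands apart at 1035 to 1344 FPKM, SRSF12 lies at 0.17 to 0.41 FPKM, and for most genes the 8 points lie close together.

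A trio of genes that resemble HNRNPC was too low to test. HNRNPCL1 was at 0 to 0.22 FPKM, HNRNPCL2 at 0 to 0.11 FPKM, and HNRNPCL4 was listed at 0 in 7 libraries and at 0.34 FPKM in the first BR library with SI-2. Reads of such copies can be divided with the parent gene, and the same holds for HNRNPA1L2 (6.07 to 9.34 FPKM) and HNRNPA1, for SRSF8 (16.8 to 20.4 FPKM) and SRSF2, and for HNRNPH2 (4.51 to 6.04 FPKM) and HNRNPH1, so the values of the lower genes are uncertain. The remaining 46 genes passed the filter and were tested. The ratio of the highest library over the lowest had a median of 1.46 over these genes and was under 2 in 42 of the 46. The same ratio was not computed over all genes, so it does not say whether the members vary less than others.

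Resistant and wild-type cells were compared first, with vehicle and SI-2 libraries together, 4 libraries against 4. None of the 46 splicing factor genes passed an adjusted p of 0.05 (quasi-likelihood test of edgeR, adjusted by the Benjamini-Hochberg method over 13520 genes), against a background of 0.362% of all genes tested (49 genes, 15 higher and 34 lower in BR). At an unadjusted p under 0.05 there were 2 members, HNRNPAB and SRSF11, both higher in BR, beside 14.4% of all genes tested. DESeq2 called 1 member, HNRNPAB, beside 2.95% of all genes, and limma called 0 beside 0.414%. The members' median log2 fold change was 0.096, with 33 above 0 and 13 below, beside a median of 0.0042 over all genes tested. This median lay between 0.062 and 0.11 when each library was left out in turn. The members above 0 then numbered 26 to 36. They were 28 with upper-quartile scaling and 35 with scaling by library size only. The standard error of a member's log2 fold change had a median of 0.12. Larger values were not called either, such as TRA2B at 0.42 (adjusted p = 0.396, edgeR). Differences well above 0.12 could therefore go undetected.

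The member with the clearest separation was HNRNPAB (NCBI gene 3182), an hnRNP protein with 2 RNA recognition motifs. After scaling by the TMM method its CPM (counts scaled to a common library size) were 214, 179, 174 and 191 in the WT libraries (in the order vehicle 1, vehicle 2, SI-2 1, SI-2 2) and 262, 233, 222 and 239.8 in the BR libraries. The 4 BR values were above all 4 WT values. HNRNPAB thus had 239 ± 16.8 CPM in BR and 189 ± 18.2 CPM in WT cells (SD, n = 4 libraries each), and its log2 fold change was 0.34 ± 0.098 (SE), with an adjusted p of 0.183 in edgeR. With DESeq2 the adjusted p of HNRNPAB was 0.0399, and over the alternatives it ran from 0.0399 to 0.488.

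HNRNPC (NCBI gene 3183), which binds uridine tracts and forms the core of hnRNP particles, was the only other member whose sides did not overlap. Its CPM was 494, 467, 483 and 461 in WT and 520.5, 513, 532 and 536 in BR cells, a log2 fold change of 0.14 ± 0.075 (SE), with an adjusted p of 0.418 in edgeR. Thus 2 of the 46 members were apart between the lines, both higher in BR, where 8.14% of all genes tested were apart.

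TRA2B, SRSF11 and SRSF4 had the largest positive values beside HNRNPAB, with wider errors. For TRA2B (NCBI gene 6434) the CPM was 362, 249, 467 and 290.3 in WT and 345, 567, 380.4 and 535 in BR cells. The second BR libraries were the highest of all, and the first BR libraries lay within the WT range. The log2 fold change of TRA2B was 0.42 ± 0.21 (SE), with an adjusted p of 0.396 in edgeR. SRSF11, an SR protein found with the spliceosome at the 3′ splice site, had 220.4, 177, 279 and 184 CPM in WT and 239, 302, 279 and 288 CPM in BR cells, a log2 fold change of 0.37 ± 0.15 (SE), with an adjusted p of 0.293 in edgeR. SRSF4, a large SR protein, had a log2 fold change of 0.35 ± 0.18 (SE), with an adjusted p of 0.392 in edgeR, with 56.7 to 99.9 CPM in WT and 91.5 to 119.9 CPM in BR cells.

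At the low end stood HNRNPA0, SF3B5, SF3B4 and SF3A2. HNRNPA0 (NCBI gene 10949), which binds AU-rich elements, had 184.5, 292, 146 and 268 CPM in WT and 227, 159, 179 and 161 CPM in BR cells. Its 2 highest libraries were the second WT libraries and its lowest was the first WT library with SI-2, so that the BR values lay inside the WT range. The log2 fold change of HNRNPA0 was -0.29 ± 0.21 (SE), with an adjusted p of 0.543 in edgeR. SF3B5, the smallest SF3B subunit, had a log2 fold change of -0.22 ± 0.12 (SE), with an adjusted p of 0.412 in edgeR, and SF3B4, which contacts RNA near the branch site, -0.21 (standard error 0.12, adjusted p = 0.471, edgeR). For SF3A2 it was -0.16 (standard error 0.12, adjusted p = 0.577, edgeR). Libraries of BR and WT overlapped for these 4 genes.

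Under vehicle alone, where 2 BR libraries stood against 2 WT libraries, 0 of the 46 members passed the test in edgeR (background 0% of 13896 genes) and 0 had an unadjusted p under 0.05 (background 3.89%). DESeq2 called 0 (background 0.201%). The members' log2 fold changes ran from -0.31 for HNRNPA0 to 0.61 for SRSF12, the gene with the fewest counts, and TRA2B had 0.58 with a standard error of 0.32.

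**Figure D2:**
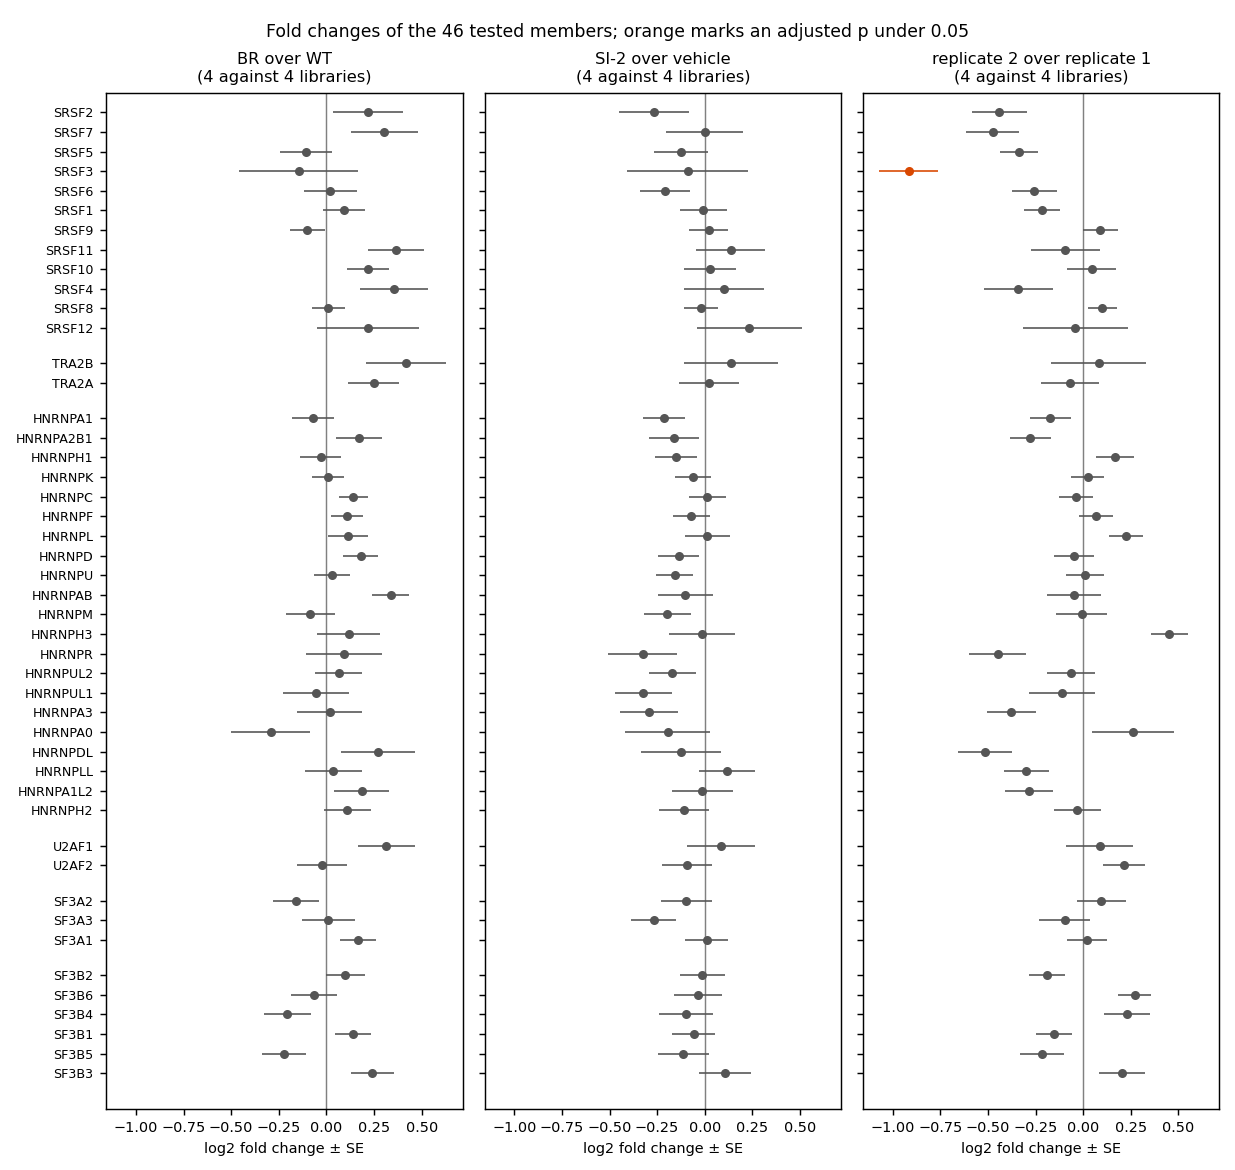
Log2 fold change with its standard error for the 46 tested genes, by family, in BR over WT (left), SI-2 over vehicle (middle) and replicate 2 over replicate 1 (right), each over 4 against 4 libraries; orange marks an adjusted p under 0.05. Only SRSF3 in the right panel is orange, at -0.92, and in the left and middle panels the values stay between -0.33 and 0.42.

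SI-2 was compared with vehicle next, over both lines and then within each. Over both lines, 0 of the 46 members passed the test (background 0% of 13520 genes in edgeR), and DESeq2 called 0 (background 0%). At an unadjusted p under 0.05 there was 1 member, SF3A3, beside 2.22% of all genes tested. The members' median log2 fold change was -0.080, with 13 above 0 and 33 below, beside 0.00035 over all genes tested, and it lay between -0.092 and -0.046 when each library was left out in turn. Scaling by library size only gave 19 members above 0.

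The lowest values belonged to HNRNPR, HNRNPUL1, HNRNPA3 and SRSF2. HNRNPR, a close relative of SYNCRIP, had 307, 233, 378 and 208 CPM with vehicle (WT 1, WT 2, BR 1, BR 2) and 224, 215, 259 and 199 CPM with SI-2 in the same order. The first BR vehicle library was the highest of the 8, and the sides overlapped. The log2 fold change of HNRNPR was -0.33 ± 0.18 (SE), with an adjusted p of 0.999 in edgeR. HNRNPUL1, a HNRNPU-like protein with a role in the DNA damage response, had 370.4, 376, 433 and 276 CPM with vehicle and 250.1, 338, 306 and 269 CPM with SI-2, which gave -0.32 (standard error 0.15, adjusted p = 0.999, edgeR). HNRNPA3 had -0.29 ± 0.15 (SE) and SRSF2 -0.27 ± 0.18 (SE), each with an adjusted p of 0.999 in edgeR. SF3A3, a subunit of SF3A, had 165, 173, 199.6 and 143 CPM with vehicle and 132, 150.3, 147 and 134 CPM with SI-2, a log2 fold change of -0.27 with a standard error of 0.12 and overlapping sides.

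HNRNPU (NCBI gene 3192), a scaffold protein of nuclear RNA and chromatin, was the only member whose vehicle and SI-2 libraries did not overlap, where 1.44% of all genes tested were apart. Its CPM was 892, 912, 1011 and 883 with vehicle and 803, 862, 788 and 859 with SI-2. The log2 fold change of HNRNPU was -0.16 ± 0.096 (SE), with an adjusted p of 0.999 in edgeR. At the other end were SRSF12 with 0.23 ± 0.28 (SE), TRA2B with 0.14 ± 0.25 (SE), SRSF11 with 0.14 ± 0.18 (SE) and HNRNPLL with 0.12 ± 0.15 (SE), all smaller than their errors.

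Within BR cells, 0 of the 46 members passed the test for SI-2 in edgeR (background 0% of 13896 genes), 0 had an unadjusted p under 0.05 (background 1.20%), and DESeq2 called 0 members (background 0.00720%). Their median log2 fold change was -0.087 with 35 of 46 below 0, and it ran from -0.19 without the second BR vehicle library to -0.024 without the first. HNRNPR had -0.36 ± 0.28 (SE), SRSF2 -0.31 ± 0.26 (SE), HNRNPUL1 -0.30 ± 0.23 (SE) and SF3A3 -0.28 ± 0.19 (SE). In each of these genes the first BR vehicle library lay above the other 3 BR libraries. This was not particular to them, since it also held for members such as HNRNPA1, HNRNPK and HNRNPU. How often it held over all genes was not computed. Without the first BR vehicle library HNRNPR stood at 0.12, HNRNPUL1 at 0.047, SRSF2 at -0.024 and SF3A3 at -0.039. HNRNPLL, SRSF4, SF3B3 and HNRNPL had the highest values (0.21, 0.13, 0.10 and 0.091), each below its standard error, and each changed sign when 1 library of BR cells was left out.

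In WT cells the result was the same in kind, with 0 of 46 members past the test in edgeR (background 0% of 13896 genes), 0 at an unadjusted p under 0.05 (background 0.533%) and 0 called by DESeq2 (background 0.00720%). The median log2 fold change of the members was -0.082 with 31 of 46 below 0, and without the first WT vehicle library it was 0.0022. The lowest were HNRNPUL1 (-0.34, standard error 0.23), HNRNPA3 (-0.32, standard error 0.24), HNRNPR (-0.30, standard error 0.28) and HNRNPDL (-0.27, standard error 0.30). The highest were SRSF12 (0.62, standard error 0.40), TRA2B (0.31, standard error 0.32), SRSF11 (0.22, standard error 0.22) and TRA2A (0.16, standard error 0.21). TRA2B and TRA2A, which share targets, were both highest among WT cells in the first SI-2 library (467 and 151 CPM) and lowest in the second vehicle library (249 and 101 CPM).

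The effect of SI-2 did not differ detectably between BR and WT cells for any member. The interaction test called 0 of 46 in edgeR (background 0% of 13896 genes), 0 had an unadjusted p under 0.05 (background 0.533%), and DESeq2 called 0 (background 0.00720%). Differences between the lines ran from -0.72 (SRSF12, standard error 0.56) to 0.27 (HNRNPDL, standard error 0.42), and their standard errors had a median of 0.27.

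For several members, libraries of the same group lay further apart than the means of the groups. The median absolute log2 ratio of the second over the first library was 0.27 over the 46 members in WT vehicle cells, 0.24 in WT SI-2 cells, 0.25 in BR vehicle cells and 0.19 in BR SI-2 cells. Over all 11276 genes with a mean count of at least 50 it was 0.20, 0.23, 0.23 and 0.23. The labels number the 2 libraries of every group 1 and 2 without saying what the number stands for. A comparison of the 4 second with the 4 first libraries was therefore made as a check, and it called 125 of 13520 genes, a background of 0.925%.

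SRSF3 (NCBI gene 6428), the smallest SR protein and an adaptor for mRNA export, was the 1 member called in that check. It had 452, 398, 445 and 436 CPM in the first libraries (WT vehicle, WT SI-2, BR vehicle, BR SI-2) and 255, 285, 212 and 164 CPM in the second libraries. Every second library lay below every first one, with the BR SI-2 library lowest. This was 229 ± 53.0 CPM against 433 ± 24.2 CPM (SD, n = 4 libraries each), a log2 fold change of -0.92 ± 0.15 (SE), with an adjusted p of 0.0375 in edgeR. The adjusted p ran from 9.22e-06 to 0.111 over the alternatives, and in 7 of the 8 fits without 1 library it was above 0.05. Only the omission of the first WT SI-2 library kept the call, at 0.0495.

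In the same check HNRNPH3 had a log2 fold change of 0.45 ± 0.099 (SE), with an adjusted p of 0.0605 in edgeR, with 186, 223, 232 and 203 CPM in the first and 289, 261, 299 and 306 CPM in the second libraries. HNRNPDL had -0.51 and SRSF7 -0.48, with adjusted p of 0.107 and 0.118 in edgeR. In all, 11 of the 46 members did not overlap between first and second libraries, 3 higher (HNRNPH3, SF3B6 and HNRNPL) and 8 lower (SRSF3, HNRNPDL, SRSF7, HNRNPA3, SRSF5, HNRNPA1L2, SRSF1 and SF3B2) in the second, where 12.0% of all genes tested were apart. At an unadjusted p under 0.05 there were 14 members, beside 16.9% of all genes, and DESeq2 called 6, beside 5.52%.

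**Figure D3:**
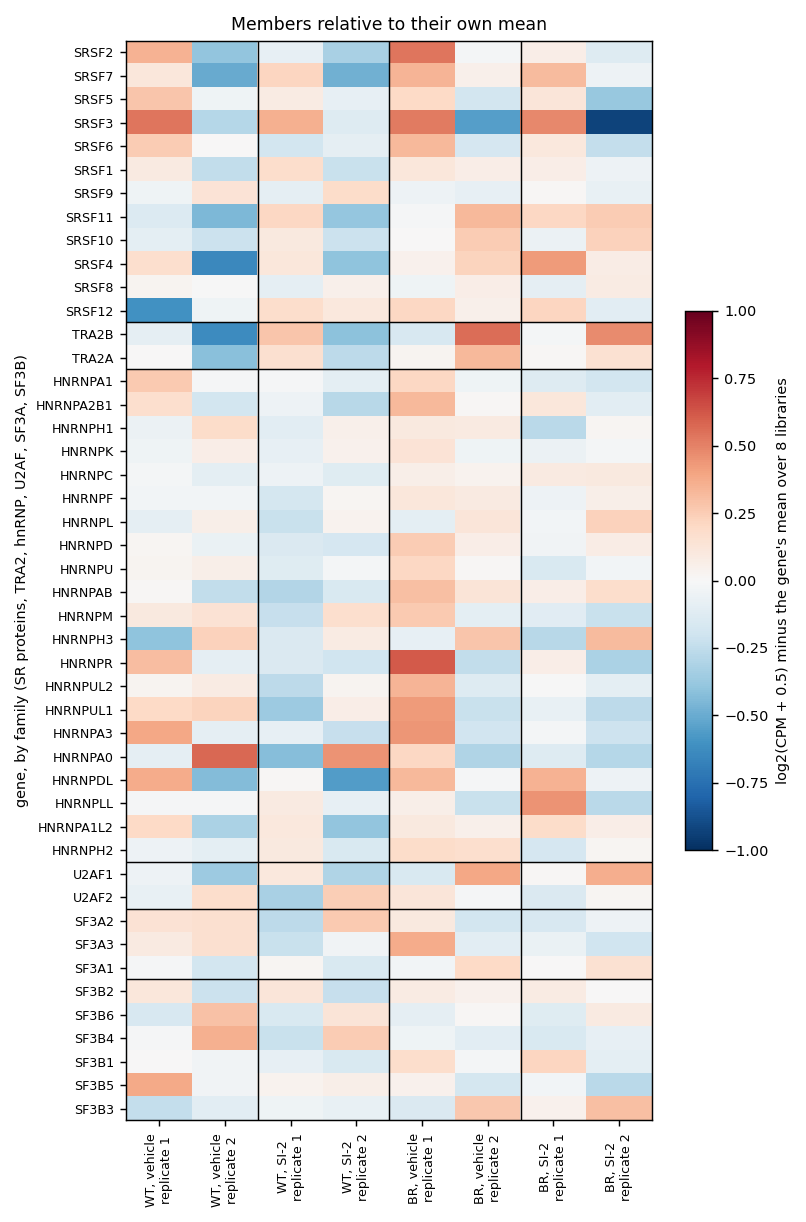
Log2(CPM + 0.5) of the 46 tested genes in the 8 libraries minus each gene's mean, with families separated by horizontal lines and groups by vertical lines. The row of SRSF3 is red in the first and blue in the second library of every group, whereas in TRA2B and TRA2A the second library is lower in WT and higher in BR groups.

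In 6 of the 46 members (TRA2B, TRA2A, U2AF1, SRSF10, SRSF11 and SF3A1) the second library was lower in both WT groups and higher in both BR groups, as it was in 10.9% of 11276 genes. TRA2B had 362 and 249, then 467 and 290.3 CPM in the first and second WT libraries (vehicle, then SI-2), and 345 and 567, then 380.4 and 535 CPM in those of BR cells. TRA2A had 136 and 101, then 151 and 113 CPM in WT, and 138 and 169, then 137 and 151 CPM in BR cells. U2AF1, which reads the AG of the 3′ splice site, had 86.5 and 69.2, then 96.0 and 72.5 CPM in WT, and 80.2 and 117, then 90.2 and 115 CPM in BR cells. Another 6 members (HNRNPA0, HNRNPM, HNRNPUL1, HNRNPUL2, SF3A3 and SRSF9) ran the other way, as did 12.5% of the genes. The first principal component of the genes that are not members held 30.0% of their variance. From first to second library it also moved in opposite directions in the 2 lines. It stood at -12.5 and -31.1, then 7.05 and -27.1 in WT, and -1.64 and 20.9, then 17.7 and 26.8 in BR libraries. The sign of a component is arbitrary, so these values match the order of either set of 6 members equally. The part of this component in the members' values was not tested. These patterns were noticed after the values were seen and were given no test.

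Transcripts of the same genes were then examined. The transcript table lists 250 transcripts of the 49 genes: 124 curated mRNAs, 100 predicted mRNAs and 26 predicted non-coding models (RefSeq names beginning NM, XM and XR). Of the genes, 13 have 1 transcript and 36 have more, up to 26 for SRSF11. Reads shared by isoforms are divided by estimation, so the values of a single transcript carry an error that the tests do not include.

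Pairs of curated mRNAs that differ by 1 coding exon or exon segment were picked by hand in 4 genes, without a search over all members. In each of these genes the pair held most of the FPKM (at least 87.8%). Their sequences show what the shares below count. Each line gives the alternative segment in capitals with 10 bases of the neighbouring exons in lower case, as in the GENCODE 29 transcripts of GRCh38, and the coordinates are of GRCh38, not of the build hg19 named in the submitters' processing notes. U2AF1 uses 1 of 2 mutually exclusive coding exons of 67 bases on the minus strand, at chr21:43100453-43100519 in NM_006758.2 and at chr21:43101366-43101432 in NM_001025203.1. HNRNPD has an exon of 147 bases (49 codons) at chr4:82356537-82356683, minus strand, in NM_031370.2 but not in NM_002138.3. HNRNPAB has one of 141 bases (47 codons) at chr5:178210132-178210272, plus strand, in NM_031266.2 but not in NM_004499.3. HNRNPU has a segment of 57 bases (19 codons) at chr1:244863617-244863673, minus strand, in NM_031844.2 but not in NM_004501.3.
U2AF1 exon of NM_006758.2: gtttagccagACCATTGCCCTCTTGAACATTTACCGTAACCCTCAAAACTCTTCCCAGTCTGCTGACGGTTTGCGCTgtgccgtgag
U2AF1 exon of NM_001025203.1: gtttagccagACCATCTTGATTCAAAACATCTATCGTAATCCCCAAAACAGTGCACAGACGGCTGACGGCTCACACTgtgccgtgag
HNRNPD exon of NM_031370.2: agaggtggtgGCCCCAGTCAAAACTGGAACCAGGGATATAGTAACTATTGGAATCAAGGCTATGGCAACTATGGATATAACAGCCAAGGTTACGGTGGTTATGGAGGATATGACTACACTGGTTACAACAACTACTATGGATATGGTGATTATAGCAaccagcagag
HNRNPAB exon of NM_031266.2: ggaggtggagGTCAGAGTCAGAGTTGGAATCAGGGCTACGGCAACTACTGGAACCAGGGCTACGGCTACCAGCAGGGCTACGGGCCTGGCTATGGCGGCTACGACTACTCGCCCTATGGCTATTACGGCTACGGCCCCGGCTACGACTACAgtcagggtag
HNRNPU segment of NM_031844.2: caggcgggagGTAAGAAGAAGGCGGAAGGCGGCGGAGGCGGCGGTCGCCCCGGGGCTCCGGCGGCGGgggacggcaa

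The 2 U2AF1 exons are identical at 44 of 67 positions and lie between the same neighbours. Of the FPKM of this pair, which held 90.4% of U2AF1, the NM_006758.2 form made up 82.5%, 79.3%, 79.3% and 78.8% in the WT libraries (vehicle 1, vehicle 2, SI-2 1, SI-2 2) and 76.6%, 74.9%, 77.7% and 81.7% in the BR libraries. The mean was 80.0% ± 1.74 in WT and 77.7% ± 2.89 in BR cells (SD, n = 4 libraries each), and the lines overlapped.

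The HNRNPD and HNRNPAB exons both encode a stretch rich in glycine and tyrosine near the end of the protein. HNRNPD, also known as AUF1, binds AU-rich elements of unstable mRNA. The form with the exon made up 40.7% to 50.4% of the pair, with 46.5% ± 3.68 in WT and 45.2% ± 3.88 in BR cells (SD, n = 4 libraries each). In HNRNPAB the form with the exon made up 62.6% to 73.4%, with 66.9% ± 2.97 in WT and 68.4% ± 4.26 in BR cells. By treatment it was 70.1% ± 2.28 with vehicle (68.3% to 73.4%) and 65.3% ± 2.87 with SI-2 (62.6% to 67.8%), so that each SI-2 library lay below each vehicle library. With SI-2 and with vehicle, the mean share was 79.4% and 78.3% in U2AF1 (NM_006758.2 form) and 44.6% and 47.1% in HNRNPD. In HNRNPU it was 35.5% and 38.8%, and the treatments overlapped in these genes. No test was run on these shares as such, which were looked at for 4 genes in 2 comparisons. How often all transcript pairs lie apart in this way was not computed. The isoform usage tests given below also covered the 2 HNRNPAB transcripts. With SI-2 the edgeR usage test had 0 member transcripts at an unadjusted p under 0.05, although the absence of a call in it carries no weight. The limma-voom usage test had 4 at an unadjusted p under 0.05 and called 0.

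HNRNPU varied most, from 23.2% in the first WT SI-2 library to 46.7% in the second WT vehicle library. Its share was 36.9% ± 10.2 in WT and 37.4% ± 2.96 in BR cells (SD, n = 4 libraries each).

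**Figure D4:**
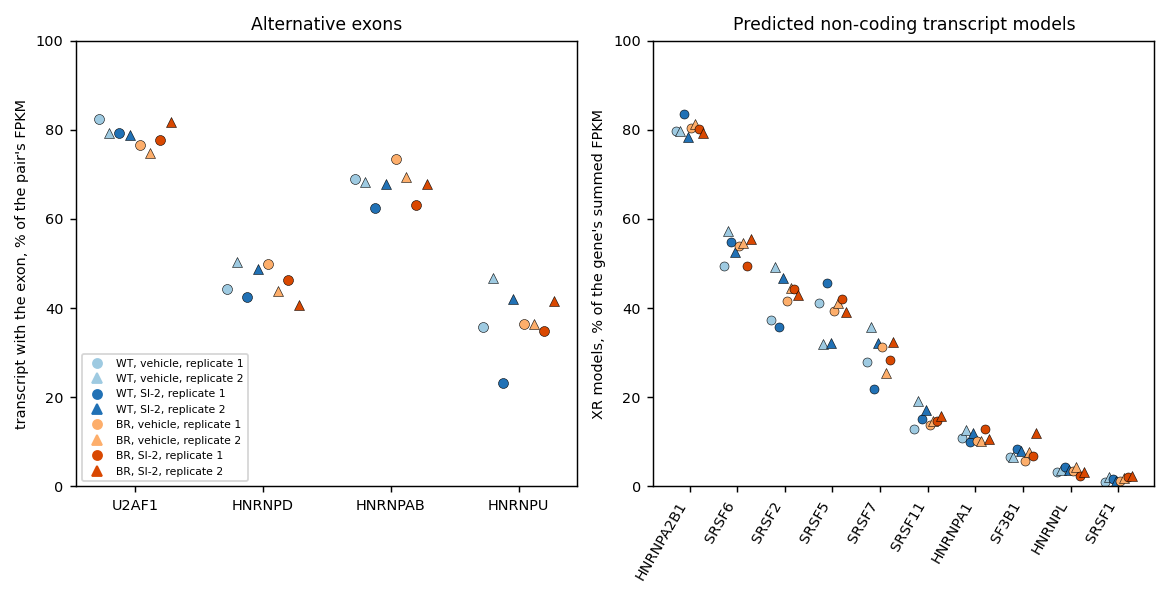
Left, share of the transcript with the alternative exon in the FPKM of its pair for 4 genes; right, share of predicted non-coding models (XR) in the summed FPKM of 10 genes, both in percent with 1 point per library (colour, group; circle, replicate 1; triangle, replicate 2). The U2AF1 points lie between 74.9% and 82.5%, the HNRNPU points between 23.2% and 46.7%, and the XR share is highest in HNRNPA2B1.

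In 10 of the 49 genes a part of the transcripts is annotated as predicted non-coding (XR models), a class that includes mRNA variants with an early stop. No curated non-coding transcript of a member is in the table. The share of XR models in a gene's summed FPKM was 78.5% to 83.6% in HNRNPA2B1, the second most abundant gene of the set. It was 49.5% to 57.3% in SRSF6, 35.7% to 49.3% in SRSF2, 32.0% to 45.6% in SRSF5 and 21.8% to 35.8% in SRSF7. The other genes were SRSF11 (12.9% to 19.0%), HNRNPA1 (10.1% to 12.9%), SF3B1 (5.58% to 11.9%), HNRNPL (2.39% to 4.41%) and SRSF1 (0.986% to 2.36%). SR protein genes, a family in which variants with an early stop are well known, make up 6 of the 10 and 12 of all 49 members. Whether a gene has XR models is set by the annotation, not by these libraries.

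SRSF2 is known to restrain its own mRNA through variants with an early stop, but whether its XR models are such variants was not examined. Its XR share was 37.3%, 49.3%, 35.7% and 46.8% in the WT libraries and 41.6%, 44.5%, 44.2% and 42.9% in the BR libraries. The 2 highest were the second WT libraries, in which the CPM of SRSF2 was lowest (354 and 372). In SRSF5 those same WT libraries were the lowest of the 8, at 32.0% and 32.2%, against 39.2% to 45.6% in the others. These are descriptions over 8 libraries, in which the depth of the gene and the estimation of its isoforms are shared.

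Isoform usage was tested over 41423 transcripts of 8893 genes, among them 189 transcripts of 35 members. For BR against WT cells 0 member transcripts had an adjusted p under 0.05 in edgeR, against 0.0362% of all transcripts, and for SI-2 against vehicle 0, against 0.0290%. At an unadjusted p there were 4 and 0 member transcripts, against 0.681% and 0.717%. limma on log2(FPKM + 1) called 1 and 0 member transcripts, against 0.234% and 0.217%. On simulated data this edgeR test found few of the changes made and many of its calls lay outside the changed genes, so that neither the absence of a call nor a call in it carries weight. A limma-voom test restricted to major transcripts was chosen after seeing the data. It called 0 of 79 member transcripts in both comparisons, beside 1 and 0 of all 14829 transcripts. The widest usage differences at a mean count of at least 50 fell, between the lines, on SRSF11 XM_024450927.1, HNRNPH1 XM_011534547.2, HNRNPM XM_005272478.3, HNRNPA2B1 XR_001744671.2 and HNRNPA3 NM_001330251.1. With SI-2 they fell on HNRNPA2B1 XR_242076.1, U2AF2 NM_007279.2, HNRNPH3 NM_001322436.1, HNRNPA3 NM_001330250.1 and the same SRSF11 transcript. Each of these was listed at 0 in 1 to 4 of the 8 libraries and all had an adjusted p of 0.999998 in edgeR, so no difference is given. HNRNPA2B1 XR_242076.1, for example, was at 6.29 and 5.80 FPKM in the second WT libraries and 5.03 and 19.45 FPKM in the BR SI-2 libraries, and was listed at 0 in the other 4.

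Between second and first libraries 1 member transcript was called in edgeR, against 0.0483% of all transcripts. It was SRSF11 XM_024450921.1, which had 0.57, 0.59, 1.92 and 2.15 FPKM in the first libraries (WT vehicle, WT SI-2, BR vehicle, BR SI-2) and was listed at 0 in all 4 second libraries (adjusted p = 0.00104, edgeR). Next came HNRNPA2B1 XR_001744673.2, XR_001744671.2 and XR_242076.1 and SRSF10 NM_001300936.1, none called and each listed at 0 in 1 to 4 libraries. At such low values in SRSF11, with its 26 transcripts, a listed 0 can be a failed estimate, and no fold is given.

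The other genes of the splicing machinery were counted as 7 lists: 37 other splicing regulators, 19 Prp19 complex and catalytic step factors, 15 genes of the exon junction complex and nonsense-mediated decay, 14 U5 and tri-snRNP proteins, 13 snRNP core proteins, 12 other U2 and branch site factors and 7 SR protein kinases (numbers tested). Of these 117 genes, 0 passed an adjusted p of 0.05 in edgeR in each of the 7 comparisons, with 10 at an unadjusted p under 0.05 in BR against WT cells and 2 with SI-2 over both lines, beside 14.4% and 2.22% of all genes tested. DESeq2 and limma called 0 in both of these, and DESeq2 called 6 between second and first libraries, beside 5.52% of all genes. In BR against WT cells the list medians lay between 0.037 for the snRNP core proteins and 0.10 for the exon junction complex list, where 13 of 15 genes were above 0, and CWC22 (0.46) and SNRPA1 (0.50) had the highest values. With SI-2 over both lines the U5 and tri-snRNP proteins had a median of -0.12 and the SR protein kinases, which phosphorylate the SR domains, 0.20, with CLK4 highest at 0.28 and SRPK3 lowest at -0.40. The 46 tested members, at medians of 0.096 and -0.080, lay within the range of these lists in both comparisons.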

How the data were processed

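RNA of 8 LP-1 libraries was sequenced on a BGISEQ platform. The authors deposited estimated counts, in which reads shared by genes or isoforms were divided, and FPKM, scaled by length and library size by the authors. The submitters' processing notes name BWA, Bowtie2, RSEM and the build hg19, without their roles. The 8 columns of condition averages and the authors' DEGseq comparison tables (fold changes and q-values) were not used.

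Estimated counts were rounded, filtered with filterByExpr, scaled by TMM (factors 0.971 to 1.058) and tested with edgeR 4.0.16 (quasi-likelihood, Benjamini-Hochberg adjustment) in R 4.3.3. The standard error was derived from the F statistic, and a call means an adjusted p under 0.05. Fits of 4 against 4 libraries held 13520 genes and fits over the 4 groups 13896. Depth was 17997771 to 18570027 counts per library. Isoform usage was tested with diffSpliceDGE of edgeR. Simulated data were used for the edgeR tests of BR against WT, SI-2 over both lines, SI-2 in BR cells and second against first libraries. The edgeR and limma-voom usage tests between the lines were also tried on them. The other comparisons, DESeq2 and limma on FPKM were not. Alternatives were DESeq2 1.42.0, limma 3.58.1 on log2(FPKM + 1) and log2(FPKM + 0.1), other scaling, filters, group terms, a replicate block and each library left out.

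Members and lists were chosen with earlier results of these data known. The genes named with values were those called in any comparison, the 4 highest and 4 lowest members by log2 fold change in BR against WT cells and in the SI-2 comparisons, the 3 most abundant of each family and those below the filter. The transcripts named were those called and the 5 with the widest usage difference at a mean count of at least 50. The 4 genes with exon shares were picked by hand. HNRNPC, HNRNPU, SF3A3 (over both lines), HNRNPH3, HNRNPDL, SRSF7, U2AF1 and others (by library) and the genes listed by overlap were named after their values were seen.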

Additional observations from a re-analysis of the deposited data

Results flagged for a closer look

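In 74 sets of 4 libraries looked at (the CPM of named or non-overlapping members and the exon shares, by line, treatment or replicate number), 4 had 1 library far from the other 3 by Dixon's 95% criterion, and chance alone marks about 1 set in 20. SRSF11 had 184.5 CPM in the second WT SI-2 library, against 278.6 to 288.3 CPM in the other SI-2 libraries. HNRNPDL had 230.5 CPM in the first WT SI-2 library, against 286.7 to 296.5 CPM in the other first libraries. The U2AF1 exon of NM_006758.2 made up 82.54% in the first WT vehicle library, against 78.75% to 79.27% in the other WT libraries. The HNRNPU segment of NM_031844.2 made up 46.67% in the second WT vehicle library, against 35.81% to 36.44% in the other vehicle libraries.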

How the results depend on the processing

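Of 544 values of 33 named results recomputed under the alternatives, 519 kept their direction and side of the threshold, 1 (HNRNPAB, BR against WT cells, DESeq2) passed it, 8 (SRSF3, second against first libraries) no longer did and 16 changed sign, all when 1 library was left out, and the cause was not tested. The log2 fold changes that changed sign ran, with SI-2 in BR cells, from -0.20 to 0.52 for HNRNPLL, -0.065 to 0.30 for SRSF4, -0.10 to 0.32 for SF3B3, -0.045 to 0.21 for HNRNPL, -0.73 to 0.12 for HNRNPR and -0.60 to 0.047 for HNRNPUL1. With SI-2 in WT cells they ran from -0.074 to 0.62 for TRA2B, -0.11 to 0.49 for SRSF11, -0.072 to 0.39 for TRA2A and -0.62 to 0.19 for HNRNPDL, and over both lines from -0.023 to 0.39 for TRA2B and -0.035 to 0.21 for HNRNPLL.

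For BR against WT cells, 0 members were called under every alternative but DESeq2, with 1. Over all genes, the count of 49 was 18 with 4-group terms and 399 with DESeq2, and 21 to 125 when 1 library was left out. Under vehicle, where 0 genes were called, there was 1 with a CPM of at least 1, 1 with upper-quartile scaling, 3 without a filter, 28 with DESeq2, and 4 and 1 with limma on log2(FPKM + 0.1) and log2(FPKM + 1). DESeq2 called 1 gene each for SI-2 in BR cells, for SI-2 in WT cells and for the interaction, and leaving out 1 library gave 0 to 67 genes for SI-2 in BR cells, the 67 without the first BR SI-2 library. Between second and first libraries, members called were 6 with DESeq2, 2 with upper-quartile scaling, 0 with group terms and 0 to 1 without 1 library, and all genes called were 746, 196, 0 and 0 to 93, with 62 and 56 in limma on log2(FPKM + 1) and log2(FPKM + 0.1).

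For isoform usage between the lines, limma on log2(FPKM + 1) called 1 member transcript and 97 in all, and limma-voom on major transcripts 1 in all. Leaving out 1 library gave 0 to 2 member transcripts (2 without the first WT vehicle library) and 10 to 36 in all. With SI-2 these tools called 90 and 0 in all, and leaving out 1 library 5 to 26. Between second and first libraries limma called 3 member transcripts of 148 and limma-voom 0 of 4, a mean count of at least 50 gave 2 member transcripts, and leaving out 1 library gave 1 to 2 and 6 to 32. The limma-voom test and the use of XR models were chosen after seeing the data. As a share of estimated counts, XR models had means of 57.1% in SRSF6, 49.6% in SRSF5, 34.6% in SRSF7, 11.9% in SRSF11, 8.94% in HNRNPA1 and 2.79% in HNRNPL.

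Deviations of same-numbered libraries correlated at 0.44 between the WT groups and 0.37 between the BR groups. Across lines they were 0.20, 0.19 and 0.10 in 3 pairs and -0.12 between WT SI-2 and BR vehicle. The numbers were therefore not taken to pair all libraries. The main SI-2 tests did not use the numbers within a line either, although the within-line correlations were the largest. Variation shared by same-numbered libraries of a line thus stayed in the spread of those tests. The replicate block fits the same difference for both lines. Set number against number, 10 of 46 members (HNRNPR, HNRNPUL1, HNRNPA3 and SF3A3 among them) were lower with SI-2 in 4 of 4 pairs and 1 was higher, beside 12.9% and 10.1% of 11276 genes. With the replicate block, 155 genes were called for BR against WT cells, 1 under vehicle, and 6 and 5 transcripts in the usage tests by line and by SI-2, with 0 members in each, and 0 members were called for SI-2 over both lines. With 2 libraries a group, the median standard error of a member was 0.19 in the comparisons of 2 against 2 libraries. Differences of that size and well above it could go undetected.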
